A study of Manacus vitellinus and Taeniopygia guttata with 24 samples.

Results

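The muscle difference of androgen-exposed zebra finches was measured in 6 RNA libraries, 3 from the scapulohumeralis caudalis (SH) and 3 from the pectoralis (PEC), out of 24 libraries in the series. They were chosen by their titles, which mark muscle and bird number, and each SH library was set against the PEC library of the same number. The birds were males that had carried a blank implant for a day before testosterone was implanted, and they are called T-only here. The comparison group of 3 finches had flutamide, an antiandrogen, in place of the blank and the same testosterone afterwards, so that all 6 finches carried testosterone. By the sample characteristics, testosterone was absent in the birds read here as flutamide-treated, which departs from the treatment protocol. Titles carry a plus or a minus sign, of which plus was read as T-only. The other species was the golden-collared manakin (Manacus vitellinus), of which 3 birds with a testosterone implant (+T) gave the same muscles. No finch without testosterone was included, so a muscle-specific response to testosterone and a standing difference between the muscles cannot be told apart here. The labels give no age.

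Of the 14926 genes listed in any of the 24 libraries, 13406 were listed in at least 1 of the 6 T-only libraries. Of these, 9155 reached 1 RPKM (the read count scaled to the length of the gene and to the read total of the library) in at least 3 of the 6 and were tested. The other 4251 stayed below that level. The files give Ensembl zebra finch identifiers without gene names, and none of the 14926 was found in the gene table at hand, which describes the manakin. For this reason the text names genes by identifier and keeps to 2 per direction and comparison. Markers of fibre types, vessels, blood, nerve and connective tissue could not be looked up, so the labelled muscles could not be checked against them.

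The pectoralis is the large flight muscle that pulls the wing down, and the scapulohumeralis caudalis is a smaller shoulder muscle that draws the upper arm back and towards the body. In small songbirds the pectoralis is built almost wholly of fast, mitochondria-rich fibres, and a few contractile and metabolic transcripts make up much of its messenger RNA. Testosterone is an androgen, a steroid hormone known to build up muscle, and flutamide is a drug that opposes androgen action. The comparison asks how far these wing muscles differ in messenger RNA when testosterone is given and its action is not opposed.

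The T-only libraries held 14341212 to 21024536 reads, of which 64.5% to 72.3% fell in listed genes. Within birds, SH was sequenced more deeply than PEC in bird 1 and less deeply in birds 2 and 3. Libraries of a muscle correlated at 0.939 to 0.954 across genes on log2(RPKM + 1). The PEC library of bird 2 was close to the SH library of its own bird: it correlated at 0.938 with it, about as closely as with the other PEC libraries (0.939 and 0.941). Without bird 2 the main result was 1637 genes higher and 166 lower in SH, against 1793 and 177 with it.

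In T-only finches the SH transcriptome was spread over more genes, and the PEC transcriptome was held by fewer, very abundant ones. In PEC 7947, 8632 and 8233 genes reached 1 RPKM in birds 1, 2 and 3, against 9735, 9439 and 9096 in SH. The muscles did not overlap in this count, and SH was higher in 3 of 3 birds. The top 20 genes of each library together held 47.8%, 43.9% and 50.1% of all RPKM in PEC and 37.3%, 39.9% and 45.8% in SH, so SH was lower in each bird while the ranges overlapped. The first 50% of RPKM was reached with 23, 29 and 20 genes in PEC and with 55, 45 and 28 in SH. Bird 1 had the widest gap between its muscles and bird 3 the narrowest in this measure. Flutamide birds also had more genes at 1 RPKM in SH, at 8519, 8527 and 8515 against 8094, 7974 and 8247 in PEC. The share of the top 20 and the number of genes that held the first 50% went as in T-only birds in flutamide birds 1 and 2. They went the other way in bird 3. In flutamide bird 3 the top 20 genes held 47.7% in SH and 45% in PEC, and 24 and 27 genes held the first 50%.

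The single most abundant gene of a library held 6.8% ± 1.44 of RPKM in PEC and 4.53% ± 0.831 in SH (SD, n = 3 each). SH was lower in 3 of 3 birds. The share of reads that fell in listed genes was also lower in SH in every bird, at 65.7% ± 1.42 against 70.6% ± 1.79 in PEC (SD, n = 3 each). Both shares were lower in SH in each flutamide bird too, though the second differed little in bird 3 (70.2% against 70.3%). With 3 birds, an exact paired permutation test cannot give a two-sided p below 0.25. All 9 measures of composition gave that value (exact paired permutation p = 0.25, adjusted p = 0.25 over the 9 tests), so none can pass a threshold.

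**Figure D1:**
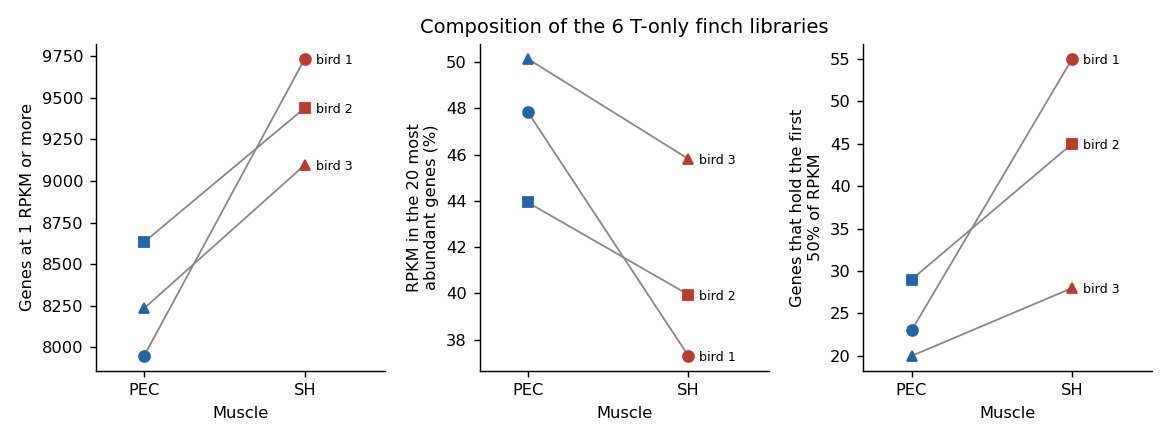
Number of genes at 1 RPKM or more, percentage of RPKM in the 20 most abundant genes, and number of genes that hold the first 50% of RPKM, in PEC (blue) and SH (red) of the 3 T-only finches, with a line for each bird; the vertical axes do not start at 0. SH lies above PEC in the outer panels and below it in the middle panel for all 3 birds.

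The muscles differed in 1970 genes, or 21.5% of the 9155 tested. Of these, 1793 genes (19.6%) were higher and 177 (1.93%) lower in SH, by limma with the bird as a block at a Benjamini-Hochberg adjusted p below 0.05. Genes that rose from PEC to SH had a median of 5.83 RPKM over the 6 libraries, beside 7.73 over all genes tested. They differed by a median of 1.27 on the log2(RPKM + 1) scale. Genes that fell were more abundant, with a median of 38.6 RPKM, and differed by a median of -1.09. At least 2-fold differences on that scale were held by 1468 of the higher and 126 of the lower genes, and at least 8-fold differences by 63 and 3.

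The calls moved the same way in nearly every bird. SH was above PEC in 3 of 3 birds for 1783 of the 1793 higher genes and below it in 3 of 3 for 172 of the 177 lower ones. Over all genes tested, 50.6% were higher in SH in 3 of 3 birds and 9.56% lower. The SH and PEC libraries did not overlap for 1592 of the higher genes, where 33.1% of all genes tested were separated in that direction, and for 123 of the lower genes, where 4.05% were. Consistency across birds enters the test itself, so these counts describe the calls and do not add to them.

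All genes together leaned towards SH. The median difference over the 9155 genes was 0.43 on the log2 scale, with 77% of genes above 0, and it was 0.7 in bird 1, 0.23 in bird 2 and 0.37 in bird 3. RPKM is scaled to gene length and to all reads of a library, so its sum is not fixed. That sum averaged 622100 in SH and 736800 in PEC and was lower in SH in 3 of 3 birds. Fewer reads in abundant genes leave more of a library's reads for other genes or for sequence outside listed genes. How much of the lean this makes was not tested. In whole muscle fewer cells of a type cannot be told apart from less RNA per cell. After median-ratio scaling, which sets the typical gene equal between libraries, that median was -0.01 and 708 genes (7.73%) were higher and 643 (7.02%) lower. All 708 were among the 1793, and 173 of the 177 lower genes were among the 643. Thus 97.7% of the lower calls and 39.5% of the higher calls were made under both scalings, and 26.9% of the 643 were called lower as deposited. The scaling factor of SH was 1.83, 1.23 and 1.36 times that of PEC in birds 1, 2 and 3. Scaling therefore moves differences downwards, which by itself keeps lower calls and removes higher ones, so these shares do not measure how firm each direction is. The filter let a gene in through the 3 libraries of 1 muscle alone. Of the 1793 higher genes, 1222, 1437 and 1259 reached 1 RPKM in PEC of birds 1, 2 and 3, against 1789, 1790 and 1781 in SH. With no filter and RPKM as deposited, the median difference over 13406 genes was 0.3.

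**Figure D2:**
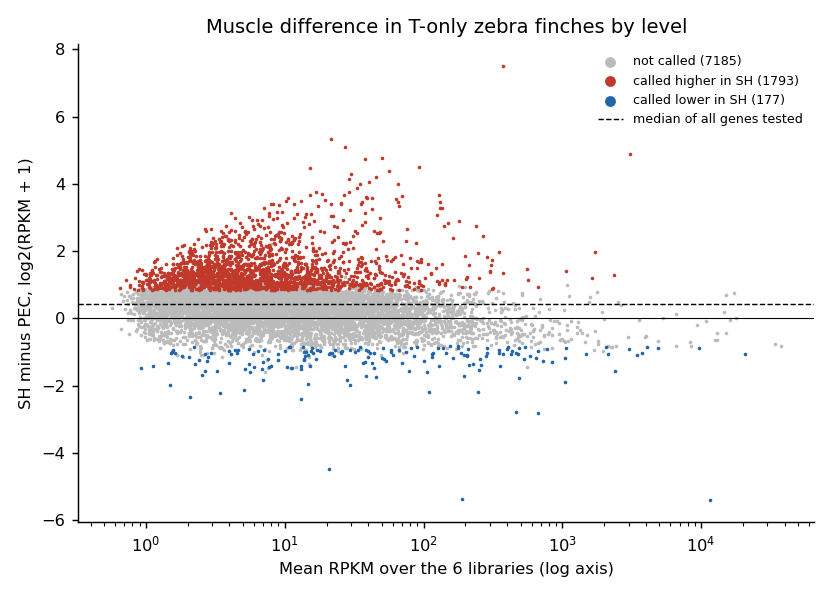
Difference between SH and PEC on log2(RPKM + 1) against the mean RPKM over the 6 T-only libraries (log axis), a point for each of the 9155 genes tested; the dashed line is the median of 0.43. Genes called higher in SH (red, 1793) lie mostly below 50 RPKM, as do most genes tested, and those called lower (blue, 177) extend across the whole range of levels.

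Level separated the directions. Among 3449 genes with a mean under 5 RPKM, 801 were called higher in SH (23.2%) and 28 lower (0.812%). The class of 500 RPKM or more had 137 genes, with 8 higher (5.84%) and 24 lower (17.5%). The median difference fell from 0.53 in the first of these classes to 0.44 at 5 to 50 RPKM, 0.04 at 50 to 500 RPKM and -0.47 at 500 RPKM or more. With median-ratio scaling the order was the same, from 0.17 through -0.05 and -0.5 to -1.01, and the most abundant class held 2 higher and 65 lower calls.

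The classes differed also in the share of each library that they took. Genes at 500 RPKM or more took 73.5%, 66.5% and 73.8% of RPKM in PEC and 59.1%, 60.8% and 66.3% in SH, in birds 1, 2 and 3. Genes under 5 RPKM took 0.764%, 1.22% and 0.848% in PEC and 2.22%, 1.89% and 1.51% in SH. In both classes the muscles did not overlap, though the abundant class came close, at 66.5% in PEC of bird 2 and 66.3% in SH of bird 3. The filter could let a gene in through the 3 libraries of 1 muscle alone, so the low class was partly chosen by these values. In flutamide birds the same genes under 5 RPKM took 0.888%, 0.83% and 1% in PEC and 1.18%, 1.33% and 1.17% in SH. Those at 500 RPKM or more took 72.8%, 71.9% and 68.7% in flutamide PEC and 68.8%, 64% and 68.7% in flutamide SH. There the muscles overlapped, and bird 3 differed little. The classes were made from the same 6 libraries, so the most abundant genes were also chosen from other birds: of the 20 that ranked first by mean over the flutamide libraries, 3 were called lower and 0 higher in T-only SH, and 17 of the 20 had a difference below 0. Of the 100 most abundant there, 17 were called lower and 3 higher, with a median of -0.49. Over all genes tested, 1.93% were called lower and 19.6% higher, and 77% had a difference above 0, with a median of 0.43.

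**Figure D3:**
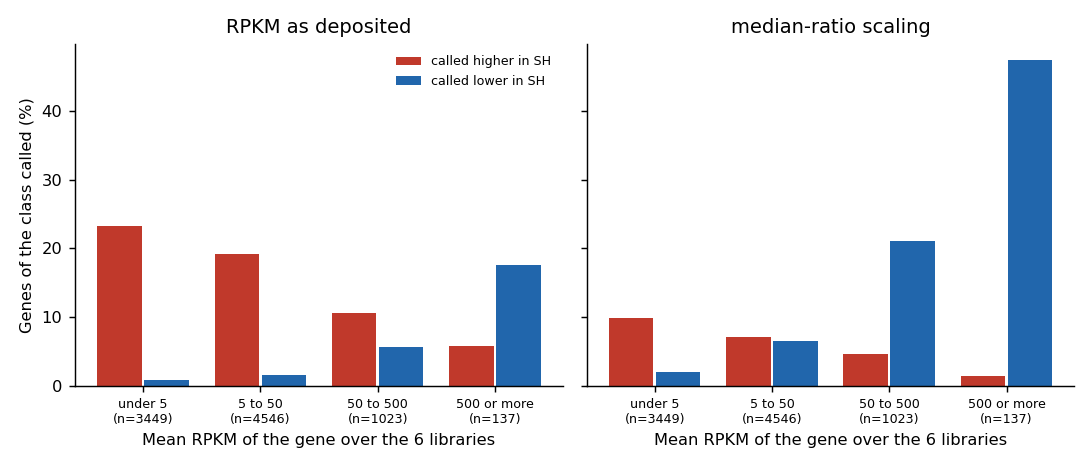
Percentage of the genes of each class of mean RPKM that were called higher (red) or lower (blue) in SH, with RPKM as deposited (left) and after median-ratio scaling (right); n is the number of genes tested in the class. The share of higher calls falls with level and that of lower calls rises in both panels.

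The highest-ranking transcripts of the muscles were largely the same. The top 20 by mean level in SH and in PEC shared 18 genes, and the top 100 shared 83. The 20 most abundant genes of the flutamide libraries took 47.7%, 43.5% and 49.9% of RPKM in T-only PEC and 35.2%, 37.9% and 44.7% in T-only SH. Together these 20 thus took a lower share in SH in 3 of 3 birds. Not every leading transcript was shared: ENSTGUG00000006008 stood at rank 4 in PEC and 106 in SH.

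ENSTGUG00000010713 had the largest difference towards SH on log2(RPKM + 1). Its level was 535, 554 and 1133 RPKM in SH of birds 1, 2 and 3 and 4.07, 0.446 and 6.57 RPKM in PEC. Every SH library was far above every PEC library, and the gene stood at rank 86 by mean level in SH and 5736 in PEC. The difference was 7.51 ± 0.35 on log2(RPKM + 1) (SE, limma adjusted p = 4.76e-07), and 6.72, 8.58 and 7.23 within birds 1, 2 and 3.

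ENSTGUG00000006624 was nearly unlisted in PEC. In SH its level was 30.9, 55.4 and 43.6 RPKM, from 474, 731 and 456 reads. In PEC it had 3 reads in bird 2 (0.212 RPKM) and was unlisted in birds 1 and 3. The difference was 5.34 ± 0.28 (SE, limma adjusted p = 9.15e-07). With a pseudocount of 0.1 it was 8.17, against 8.13 for ENSTGUG00000010713, so the order of these genes depends on the pseudocount.

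ENSTGUG00000006008 was the 4th most abundant PEC transcript. It was at 23670, 22000 and 22400 RPKM in PEC and at 490, 818 and 374 RPKM in SH. The PEC values varied little between birds, and the mean was 40.5-fold above that of SH. The difference was -5.41 ± 0.31 on log2(RPKM + 1) (SE, limma adjusted p = 1.41e-06), with -5.59, -4.75 and -5.9 within birds 1, 2 and 3.

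ENSTGUG00000001851 varied much more between birds. It was at 1014, 93.2 and 14.2 RPKM in PEC of birds 1, 2 and 3 and at 12.3, 0.489 and 0 RPKM in SH, the last from no reads. The lowest PEC value lay just above the highest SH value, so the muscles were better separated within birds than between them. The difference was -5.38 ± 0.4 (SE, limma adjusted p = 1.59e-05). In fits without the bird block that left out 1 library, the adjusted p was 0.107 without the PEC library of bird 1, 0.0576 without that of bird 2, and 0.058 and 0.0659 without the SH libraries of birds 2 and 3.

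**Figure D4:**
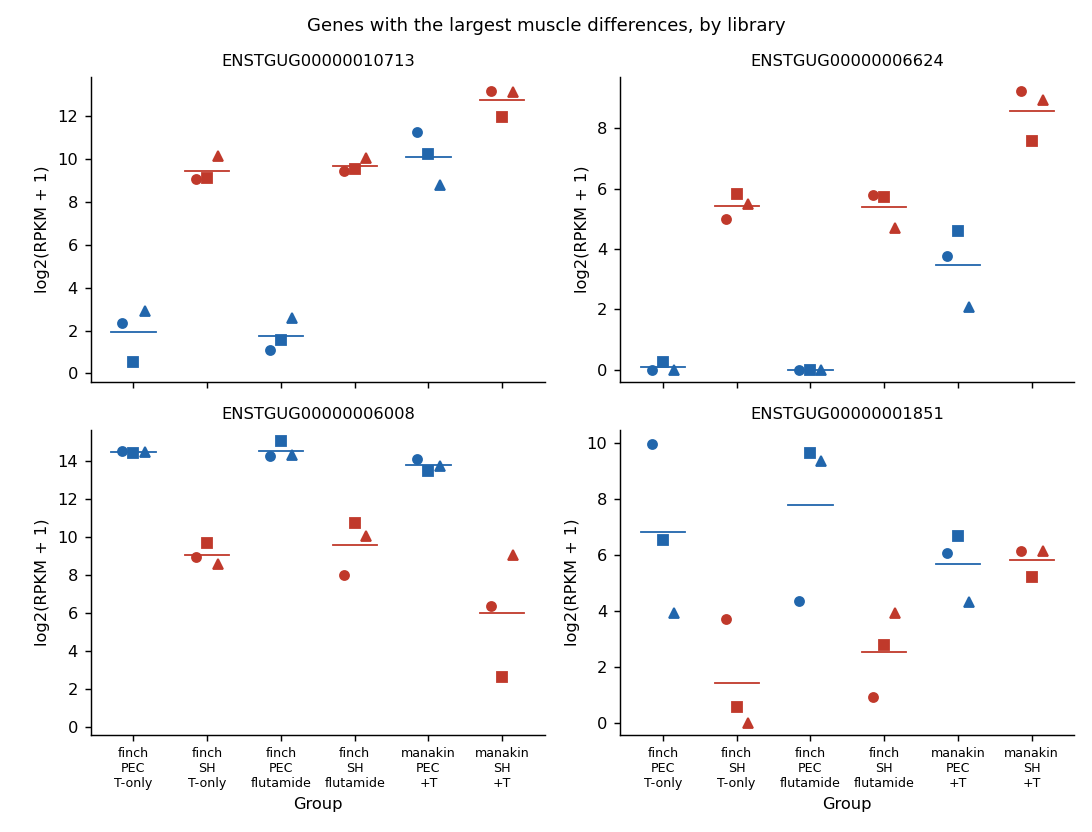
Level on log2(RPKM + 1) of the 4 genes with the largest muscle differences in T-only finches, in PEC (blue) and SH (red) of T-only finches, flutamide finches and +T manakins; circle, square and triangle are birds 1, 2 and 3 and the bar is their mean. In both finch groups the upper genes are high in SH and the lower genes high in PEC, and in manakins ENSTGUG00000001851 shows no separation.

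Some genes were listed in only 1 muscle. Of the 13406 genes listed in any T-only library, 135 were listed in 3 of 3 SH and 0 of 3 PEC libraries, and 12 the other way round. These were rare transcripts: the 135 had a median of 0.405 RPKM and of 22 reads over the 3 SH libraries, the most abundant being at 8.77 RPKM, and 12 of them passed the filter for testing. The flutamide birds, which did not choose these genes, listed 55, 70 and 69 of the 135 in SH and 39, 45 and 58 in PEC. More of them were listed in SH than in PEC in 3 of 3 flutamide birds, but many were listed in either muscle. Of all genes, too, flutamide SH listed more, at 11193, 11358 and 11480 against 10790, 10874 and 11298 in PEC.

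Genes called lower in SH were short. The length by which the authors divided, recovered from the RPKM values, had a median of 618 bases for the 177 lower genes, 1341 for the 1793 higher ones and 1284 for all genes tested. When the genes were put in 4 length classes of nearly equal number, in the shortest, of up to 816 bases, 108 were lower (4.71%), and in the longest, above 2040 bases, 8 were (0.35%). With RPKM as deposited, higher calls varied little with length, at 18.6% in the shortest and 20.3% in the longest class. With median-ratio scaling, 201 of 2295 genes were higher and 272 lower in the shortest class, and 154 of 2288 and 44 in the longest. The median difference rose from 0.27 in the shortest to 0.53 in the longest class, and it rose within each bird, from 0.49 to 0.84 in bird 1, 0.19 to 0.25 in bird 2 and 0.12 to 0.51 in bird 3. Short genes were also the more abundant ones, with a median length of 780 bases at 500 RPKM or more and 1434 under 5 RPKM. Within the 4 classes of level the rank correlation of length and difference was 0.1 to 0.31 across genes. In flutamide birds the median difference rose as well, from 0.06 in the shortest to 0.36 in the longest class. Over all genes the rank correlation was 0.237 there and 0.163 in T-only birds. The part of length in the muscle difference was not tested.

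The 3 birds ranked the genes alike but not to the same extent. Across the 9155 genes the muscle differences of birds 1 and 2 correlated at r = 0.61, those of birds 1 and 3 at 0.653 and those of birds 2 and 3 at 0.534, with 69.9% to 77.6% of genes of the same sign. Genes share the library and its depth, so these are descriptions. Bird 1 had 3141 genes at least 2-fold higher in SH, bird 2 had 1069 and bird 3 had 1628. Without bird 1 the calls numbered 382 higher and 41 lower, and without bird 3 they numbered 1180 and 70, so bird 1 bore most on their number.

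The flutamide finches showed whether these genes differed between the muscles of other birds. Of the 1793 genes called higher in T-only SH, 1658 (92.5%) were higher in flutamide SH too, where 70.5% of all genes tested were. In all 3 flutamide birds 1228 (68.5%) were higher, against 39.9% of all genes. Of the 177 lower genes, 173 (97.7%) were lower in flutamide SH, where 29.4% of all genes were, and 140 (79.1%) were lower in 3 of 3 birds, against 12.2%. Across all 9155 genes the differences of the 2 groups, which share no library, correlated at r = 0.678 (Spearman's rho = 0.65).

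The genes with the largest T-only differences kept their direction in the flutamide birds, and the higher ones were smaller there. The median difference of the 63 genes at least 8-fold higher was 3.47 in T-only and 1.47 in flutamide birds, and that of the 258 at least 4-fold higher was 2.45 and 0.92. For the 11 genes at least 4-fold lower the medians were -2.41 and -2.62. These genes were chosen by their T-only size, so the medians are descriptions. Of the 63 genes at least 8-fold higher in T-only SH, 62 were higher in flutamide SH, 59 of them in 3 of 3 birds, and 53 by at least 2-fold. All 11 lower genes were lower in flutamide SH and 10 by at least 2-fold. ENSTGUG00000010713 was at 700, 748 and 1054 RPKM in flutamide SH and 1.15, 1.91 and 4.97 in flutamide PEC, a difference of 7.94 ± 0.25 (SE, limma adjusted p = 6.32e-06). ENSTGUG00000006624 was unlisted in all 3 flutamide PEC libraries and had 54.8, 51.3 and 24.9 RPKM in SH. ENSTGUG00000006008 was at 19210, 33020 and 20400 RPKM in flutamide PEC and 250, 1661 and 1066 in SH. For ENSTGUG00000001851 the flutamide muscles again did not overlap, with 19.4, 805 and 660 RPKM in PEC and 0.908, 6.01 and 14.4 in SH.

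With RPKM as deposited, the muscle difference of the higher genes was smaller in flutamide than in T-only birds. That of the lower genes was similar in both groups. The median difference of the 177 lower genes was -1.09 in T-only and -0.96 in flutamide birds. That of the 1793 higher genes was 1.27 in T-only and 0.6 in flutamide birds, beside medians over all genes of 0.43 and 0.25. Gene by gene, the T-only minus the flutamide difference had a median of 0.75 for the higher genes and -0.24 for the lower. Over all genes it was 0.16, so the lean towards SH differed between the groups. Its part in the contrast of higher and lower genes was not tested. The median level of the higher genes was 10.6, 8.08 and 7.35 RPKM in T-only SH and 4.72, 4.13 and 3.84 in flutamide SH, while it was 1.99, 3.34 and 2.24 in T-only PEC and 2.24, 1.96 and 2.59 in flutamide PEC. SH thus carried the gap between the treatments in these genes and PEC levels overlapped. The genes were called on the T-only values, which by itself makes those values larger, so the gap is a description.

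**Figure D5:**
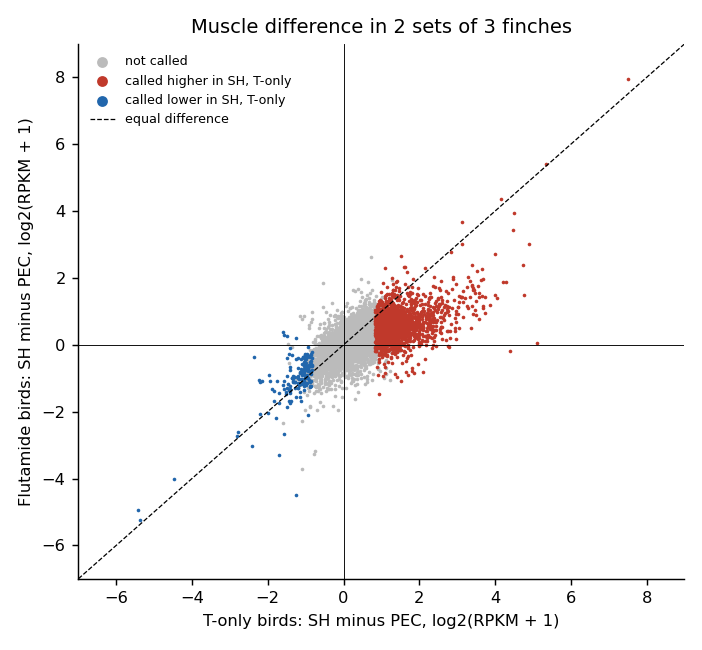
Difference between SH and PEC on log2(RPKM + 1) in T-only finches (horizontal) and in flutamide finches (vertical), a point for each of the 9155 genes; colours mark the genes called in T-only birds. The lower genes (blue) lie near the dashed line of equal differences and most higher genes (red) below it, with medians of 1.27 and 0.6.

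The flutamide fit on its own called 210 genes higher (2.29%) and 72 lower (0.786%) of the 9155, together 3.08%. Of these 174 and 39 were also called in T-only birds, which is 82.9% and 54.2% of the flutamide calls and 9.7% and 22% of the T-only calls. The flutamide split turned to 9 higher and 13 lower with median-ratio scaling. It was 600 and 219 over the genes that reached 1 RPKM in at least 3 flutamide libraries, a filter chosen after seeing the data.

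The difference between the groups was tested directly, as the interaction of muscle and treatment over the 12 finch libraries with the bird as a block. It called 0 of 9155 genes (0%) with limma, with 964 at an unadjusted p below 0.05. With median-ratio scaling it called 0, with 845 at that p, and without the block 0, with 719. The larger number of calls in T-only birds is therefore not shown to be a larger muscle difference. Leaving out 1 T-only bird gave 1, 11 or 9 calls for birds 1, 2 and 3, all with a larger difference in T-only birds, and leaving out flutamide bird 2 gave 1.

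The genes with the smallest interaction p, 2 in each direction, were as follows. ENSTGUG00000018460 was at 124, 14.3 and 25.9 RPKM in T-only SH and had 7 reads at most in any other finch library. Its muscle difference was 5.1 in T-only and 0.05 in flutamide birds, which differ by 5.05 ± 0.69 (SE, limma adjusted p = 0.087). It passed when any 1 T-only bird was left out (limma adjusted p = 0.0228 to 0.0456). It did not pass when any 1 flutamide bird was left out (limma adjusted p = 0.107 to 0.199). Nor did it pass with median-ratio scaling (limma adjusted p = 0.158) or without the block (limma adjusted p = 0.134). ENSTGUG00000011822 was at 11.5, 10.6 and 7.58 RPKM in T-only SH and between 1.19 and 3.56 in the other 9 finch libraries. Its differences of 1.78 and -0.29 differ by 2.08 ± 0.31 (SE, limma adjusted p = 0.087). The values of these genes in T-only SH did not overlap those of any other finch group. They were chosen by the interaction in the same libraries, which by itself favours such a separation, so this is a description.

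In the other direction both genes were rare. ENSTGUG00000003539 was unlisted in all 3 T-only SH libraries and had 2 to 11 reads in each of the other 9 finch libraries, and its interaction was -1.75 ± 0.37 (SE, limma adjusted p = 0.126). ENSTGUG00000009078 was at 1.13, 0.658 and 0.738 RPKM in T-only SH and 1.85, 1.36 and 1.7 in T-only PEC, with an interaction of -1.19 ± 0.3 (SE, limma adjusted p = 0.165). Its T-only muscle difference of -0.52 did not pass (adjusted p = 0.177).

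In +T manakins, 6818 of the genes tested in the finch reached 1 RPKM in at least 3 of 6 libraries. Manakin values are given under finch gene identifiers, so levels are not compared between species here. Limma with the bird as a block called 0 of them (0%), with 1015 at an unadjusted p below 0.05. It also called 0 without the block, with 952 at that p, and 0 with median-ratio scaling, with 745. The SH library of manakin bird 2 stood apart, correlating at 0.812 and 0.816 with the other SH libraries, which correlated at 0.939 with each other. Without that bird 10 genes were higher and 7 lower in SH, and without bird 1 or bird 3 none was called.

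Finch calls pointed the same way in most manakin genes, over a background that leaned towards SH as well. Of the 1278 genes called higher in T-only finch SH that were tested in manakins, 1146 (89.7%) were higher in manakin SH, where 76.3% of all 6818 were. Of the 96 genes called lower, 70 (72.9%) were lower in manakin SH, where 23.7% of all were. The medians of these genes within manakin birds 1, 2 and 3 were 0.63, 1.05 and 0.49 for the higher and -0.45, -1.18 and -0.37 for the lower genes. Across the 6818 genes the finch and manakin differences correlated at r = 0.39.

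Of the genes with the largest finch differences, 3 pointed the same way in manakins. ENSTGUG00000010713 was at 9280, 3935 and 8987 RPKM in manakin SH and at 2404, 1190 and 441 in manakin PEC, without overlap. ENSTGUG00000006008 was at 17340, 11340 and 13380 RPKM in manakin PEC and 82.2, 5.07 and 521 in SH, a difference of -7.75 ± 1.07 (SE, limma adjusted p = 0.193). Manakin SH had 599, 191 and 491 RPKM of ENSTGUG00000006624, and manakin PEC 12.6, 23.2 and 3.24. ENSTGUG00000001851 overlapped between manakin muscles, at 70.9, 36.1 and 70.8 RPKM in SH and 67.2, 101 and 19 in PEC, a difference of 0.15 ± 0.64 (SE, limma adjusted p = 0.903).

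The manakin genes with the smallest p had differences of the same sign in the finch. Without manakin bird 2, ENSTGUG00000011307, ENSTGUG00000002233 and ENSTGUG00000013386 passed (limma adjusted p = 0.00559, 0.0388 and 0.00106), and ENSTGUG00000004856 did not (0.0753). ENSTGUG00000011307 was at 184, 67.5 and 65.3 RPKM in manakin SH and 0.721, 4.12 and 0.229 in PEC, and in T-only finches at 35.6, 8.7 and 46.7 against 0.166, 0.0468 and 0.266. ENSTGUG00000002233 was at 8.45, 162 and 8.83 RPKM in manakin SH and 0, 14.2 and 0 in PEC, the high values being those of bird 2. In T-only finches it was at 36.4, 4.55 and 4.24 RPKM in SH and at most 0.404 in PEC. ENSTGUG00000004856 was lower in SH in either species, at 0.0906, 2 and 0.885 RPKM against 30.1, 42.9 and 49.6 in T-only finches and 0.13, 1.69 and 0.106 against 7.11, 14.8 and 19.2 in manakins.

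ENSTGUG00000013386 had a difference below 0 in either species. In T-only finches it was at 182, 262 and 189 RPKM in SH and 491, 1096 and 682 in PEC (log2 -1.78 ± 0.28, SE, limma adjusted p = 0.00139). In +T manakins it was at 0.488, 36.5 and 0.545 RPKM in SH and 2651, 1298 and 1464 in PEC, a difference of -8.6 ± 1.06 (SE, limma adjusted p = 0.193). Whether the muscle differences of this gene differ between the species was not tested.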

How the data were processed

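The deposited values were RPKM, computed by the authors per gene and library, per the file headers, which name Ensembl release 68. Libraries were strand-specific and poly(A)-selected, per the labels' protocols. CASAVA, cutadapt and Bowtie 0.12.9 appear, per the submitters' processing notes, without order or settings. Build and counting method are not given in the sources used here. Unlisted genes were read as 0.

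Read totals, gene lengths and whole reads were recovered from the RPKM values: each of the 249311 gave a whole read number (relative tolerance 3e-13). Lengths were chosen to make the values of a gene whole, so this outcome is largely set by the procedure. On simulated data of 3000 genes it recovered 12 of 12 totals and 99.991% of the read numbers. RPKM of 1 read in a gene of 1 kb was 0.0476 to 0.0697 in the T-only libraries. The reads carry no molecular identifiers, so their number is not a count of molecules.

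Differences on log2(RPKM + 1) were tested by limma 3.58.1 under R 4.3.3, with the bird as a block and Benjamini-Hochberg adjustment over all genes tested. On this scale the change of low genes is understated. Simulated T-only data with 200 changed genes gave 98% of 4-fold higher, 52% of 2-fold higher, 100% of 4-fold lower and 36.7% of 2-fold lower genes, with 11 false calls of 8794. The simulation had the same dispersion for all genes and as many genes raised as lowered. It had no lean of all genes towards SH, unlike the data, so its rates do not carry over to the calls. The deposited names give 1 bird code to same-numbered libraries of a treatment. The deviations of such libraries from the muscle means correlated at 0.29, 0.381 and 0.32 across genes, against -0.232 to -0.0542 between birds. Deviations of a muscle sum to 0 for each gene, so positive values within birds force those between birds to lean negative. Libraries of a muscle differed by 50.3 to 145 chi-square per degree of freedom, so none was a repeated deposit. Birds were taken as separate animals.

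Named genes are the 2 in each direction with the largest difference among called genes that had the same sign in all 3 birds and non-overlapping muscles, and the 2 in each direction with the smallest p for the interaction and for manakins. Comparison, lists and rules were chosen with earlier results of these data known. The lists of gene symbols could not be used. Python 3.11.15 with numpy 2.4.6, pandas 2.3.3, scipy 1.17.1 and matplotlib 3.10.9 did the rest.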

Additional observations from a re-analysis of the deposited data

Results flagged for a closer look

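For a pair of the genes named for the smallest interaction p, all 3 T-only birds and all 3 flutamide birds moved in opposite directions between the muscles. ENSTGUG00000011822 was higher in SH of all T-only birds and lower in SH of all flutamide birds, with an interaction of 2.08 (limma adjusted p = 0.087). ENSTGUG00000009078 was lower in T-only SH and higher in flutamide SH, with an interaction of -1.19 (limma adjusted p = 0.165). Neither passed. Both were chosen by the interaction in these same libraries, which by itself favours opposite directions. Over all 9155 genes, 110 were higher in SH in all T-only birds and lower in all flutamide birds, and 16 showed the reverse. Of all genes tested, 12.2% were lower and 39.9% higher in SH in all flutamide birds. Among the genes that all T-only birds moved 1 way, opposite movement was thus rarer than among all genes. In T-only birds 24 of the 110 were called higher, against 1783 of the 4634 genes that were higher in SH in all T-only birds. Of the 16, 0 were called lower, against 172 of the 875 genes that were lower in all T-only birds. Over all genes tested, 19.6% were called higher and 1.93% lower.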

How the results depend on the processing

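The T-only calls were 1793 higher and 177 lower in SH. They were 1095 and 56 with no replicate block, 708 and 643 with median-ratio scaling, 533 and 379 with quantile scaling, 831 and 48 with a pseudocount of 0.1, and 351 and 27 with no filter on low values. With limma-voom on the recovered reads they were 2255 and 284, and with median-ratio scaling and no replicate block, added after seeing the data, 416 and 231. Leaving out a bird gave 382 to 1637 higher and 41 to 166 lower calls with the block, so bird 1 moved them most. Without the block, leaving out the PEC library of bird 1, 2 or 3 gave 282, 1984 or 366 higher and 23, 152 or 23 lower calls, and leaving out the SH library 329, 642 or 885 higher and 19, 49 or 31 lower. The stricter filter, a variance trend and the fit on 12 finch libraries stayed within 1.5 times. ENSTGUG00000010713, ENSTGUG00000006624 and ENSTGUG00000006008 kept direction and call in 19 of 19 alternatives, with adjusted p up to 0.0266. ENSTGUG00000001851 lost its call in 5 of 19, all without the block.

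In flutamide birds the calls of 210 higher and 72 lower became 24 and 8 with no replicate block, 9 and 13 with median-ratio scaling, 600 and 219 with the filter on the flutamide libraries, and 5 to 83 and 0 to 38 when a bird was left out. In manakins they were 0 and 0, and 0 to 10 and 0 to 7 when a bird was left out. The interaction calls were 0, and 0 to 11 with a larger difference in T-only birds when a bird was left out. The cause of these changes was not tested. The share of RPKM in the 20 most abundant genes differed by -6.29 percentage points between SH and PEC, and that in the 10 and 100 most abundant by -4.44 and -9.07. A planned quasi-likelihood test of counts was not run, though limma-voom was run on the recovered reads. The gene lists were not tested under any scaling. At 3 birds a group, the depth of 0.0476 to 0.0697 RPKM for 1 read in a gene of 1 kb limits statements on genes near 0.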
